A study of Mus musculus with 6 samples.

Results

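Histone genes were followed in RNA sequencing data from mouse double negative T (DNT) cells, T cells that carry the T cell receptor without CD4 or CD8, cultured with or without the cytokine IL-33. The genes were chosen by symbol alone, as every gene of the deposited count table whose GENCODE M21 symbol begins with Hist1h, Hist2h, Hist3h, Hist4h, H2af, H3f or H1f. The annotation holds 91 genes with such symbols, of which 70 had a row among the 26128 genes of the table. The 70 genes were 54 clustered histone genes, whose symbols begin with Hist (52 protein coding and 2 pseudogenes), and 16 genes outside the clusters (11 protein coding, 4 pseudogenes and 1 antisense RNA). Of the clustered genes 46 lie on chromosome 13, 4 on chromosome 3, 3 on chromosome 11 and 1 on chromosome 6. After a filter on low counts, 31 of the 70 genes were tested, 19 clustered and 12 outside.

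CD4+CD25- T cells of adult C57BL/6 mice, which the labels give as spleen and the methods as spleen and lymph node cells, had been converted to DNT cells by culture with mature dendritic cells of DBA/2 mice and IL-2, and then sorted as CD3+NK1.1-CD4-CD8- cells. The sorted cells were then cultured on anti-CD3/CD28 beads for 48 h, which activate T cells through their receptor, in both groups. The control group (3 libraries) had beads alone, and the IL-33 group (3 libraries) had beads and IL-33 at 50 ng/ml. Neither the labels nor the methods tell if the replicates were separate mice or separate cultures, so the p-values below measure the spread between these libraries, which may be technical.

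Nucleosomes wrap DNA around the core histones H2A, H2B, H3 and H4, and linker histones of the H1 family bind where DNA enters and leaves them. Most core and linker histone genes lie in clusters and are used during S phase, and their mRNAs end in a conserved stem-loop, bound by the stem-loop binding protein (Slbp), instead of a poly(A) tail. Replacement variants such as H2A.Z and H3.3 are made from single genes outside the clusters with ordinary polyadenylated mRNAs, in every phase of the cell cycle, and T cells that leave rest to divide need both kinds of supply.

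Library totals ran from 20256342 to 22336050 counts, so a gene with 3 counts stood at 0.135 to 0.148 CPM (counts in 1000000 of the scaled library), and such limits cover counting error only. With edgeR's quasi-likelihood test, 4036 of 14671 tested genes had an adjusted p under 0.05 (Benjamini-Hochberg), and 714 of these also passed the study's fold threshold of 1.5 in either direction. All 13 T cell markers were detected, with summed levels of 3050 to 3230 CPM over the libraries, and 2 of them were higher and 4 lower with IL-33. Of 8 B cell markers 6 had a row, with summed levels of 15.9 to 21.8 CPM, and 3 were tested and not called. mRNA of the genes whose proteins had been gated out was also present, since Cd8a stood at 545 ± 13.6 CPM in control and 400.2 ± 9.15 CPM in IL-33 libraries (SD, n = 3 per group), while Cd4 stood at 0.934 and 0.373 CPM. Klrb1c, the gene of NK1.1, was also called lower (33.5 and 25.6 CPM), whereas Cd8b1 was called higher, from 9.68 to 16.3 CPM (log2 fold change 0.75). Of the 15 dendritic and myeloid markers with a row 9 were tested, with 3 higher and 2 lower. The 15 markers summed to 105 to 107 CPM in control and 83.8 to 92.2 CPM in IL-33 libraries, of which Itgax gave 54.6 and 26.0 CPM. Without Itgax the sums were 49.1 to 53.7 CPM in control and 59.1 to 64.5 CPM in IL-33 libraries, and H2-Ab1 (24.8 and 30.3 CPM), Itgam (2.61 and 4.83 CPM) and Batf3 (1.51 and 3.68 CPM) were the markers called higher. The part of such cells in the histone results was not tested. In bulk RNA, fewer cells of a type and less RNA per cell cannot be told apart.

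The 3′ ends of the annotated transcripts separated the clustered genes from the rest. A stem-loop was searched on the sense strand as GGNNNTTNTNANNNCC, 16 bases with complementary arms, and it was found in 40 of the 52 listed clustered coding genes (76.9%), in 1 of the 11 coding genes outside the clusters (H2afx) and in 0.315% of all 21901 coding genes. The letters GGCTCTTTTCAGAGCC were shared by 22 of the listed genes, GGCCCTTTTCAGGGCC by 7 genes of the H4 family, and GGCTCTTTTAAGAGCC by 5 genes. A poly(A) signal, AATAAA or ATTAAA in the last 40 bases of a transcript, was annotated in 28.8% of the clustered genes, 90.9% of the genes outside and 76% of all coding genes. The sites of 5 genes are shown, 5′ to 3′ in the DNA letters of GENCODE M21, because these are the clustered genes of highest level with a site in H1, H2B, H3 and H4 and the single gene with a site outside the clusters. Capitals mark the stem-loop.
Hist1h1c: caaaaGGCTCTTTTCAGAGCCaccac
Hist1h2bg: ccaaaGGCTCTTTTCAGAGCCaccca
Hist1h4i: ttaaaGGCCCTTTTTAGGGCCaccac
Hist1h3c: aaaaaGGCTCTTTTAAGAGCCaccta
H2afx: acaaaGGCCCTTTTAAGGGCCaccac

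The annotated transcripts of Hist1h1c, Hist1h4i and H2afx run on for 840, 330 and 822 bases past the stem-loop. Among the listed clustered genes with a stem-loop, 21 have a transcript that runs on for at least 100 bases, and 11 of these were tested, with a median of 0.614 CPM over the 21. Transcripts of the other 19 end nearer to the stem-loop, and 4 of these genes were tested, with a median of 0.234 CPM over the 19. These medians are not divided by length, and genes that run on can be much longer. Hist1h1d, which runs on, has 7425 exon bases, and Hist1h2bj, which ends near the stem-loop, has 463. The medians therefore do not tell which kind of transcript entered the libraries more readily.

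Promoters of 250 bases before and 50 bases after the RefSeq start were matched for 47 clustered genes and 11 genes outside. They were searched on both strands for the CCAAT box (CCAAT), the TATA box (TATAAA), the octamer bound by Oct-1 (ATTTGCAT) and the CHR element of cell cycle genes (TTTGAA), and matches to different motifs may share bases. A CCAAT box was present in 83% of the clustered promoters, against 63.6% of those outside and 37.9% of all 27025 promoters. TATA boxes stood in 59.6%, 9.09% and 14.2%, octamers in 19.1%, 9.09% and 1.75%, and CHR elements in 51.1%, 9.09% and 18.1% of the same sets. Families differed, since all promoters of the clustered H1, H2A, H2B and H3 genes had a CCAAT box but 27.3% of the H4 promoters did, and the CHR element was most frequent in the H2B promoters (85.7%). Of the 47 clustered promoters, 10 overlap the window of another one and so share bases with it.

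**Figure D1:**
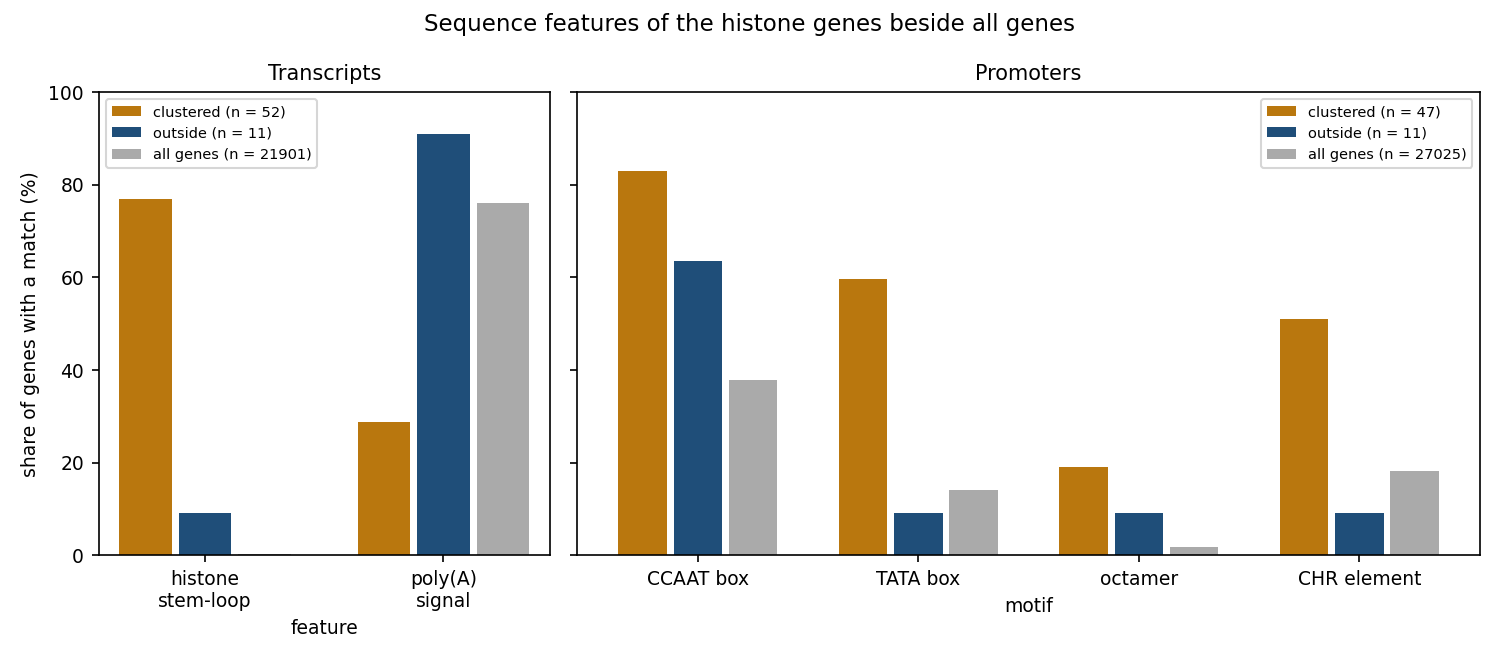
Share of genes in % (y axes, from 0) with a stem-loop or poly(A) signal in a transcript (left) and with each motif in the promoter (right), for clustered histone genes, genes outside the clusters and all genes of the annotation. The stem-loop reaches 76.9% in the clustered genes and 9.09% outside, while the poly(A) signal runs the other way.

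The 250 bases before the start are printed for the clustered gene with the firmest change, Hist1h1c, and for the pairs H3f3a and H3f3b, which encode the same H3.3 protein, and H2afz and H2afv, which encode the H2A.Z proteins. Sequences are from RefSeq on GRCm38.p6, 5′ to 3′ on the strand of the gene, with matches to any of the 4 motifs in capitals (ATTGG, ATGCAAAT and TTCAAA are matches on the other strand).
Hist1h1c (chr13:23738557-23738806, plus strand): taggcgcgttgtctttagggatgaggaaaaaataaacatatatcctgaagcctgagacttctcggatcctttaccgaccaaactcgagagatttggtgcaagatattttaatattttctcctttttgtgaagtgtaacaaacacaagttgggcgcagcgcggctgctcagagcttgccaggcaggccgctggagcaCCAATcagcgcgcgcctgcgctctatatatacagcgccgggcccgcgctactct
H3f3a (chr1:180813606-180813855, minus strand): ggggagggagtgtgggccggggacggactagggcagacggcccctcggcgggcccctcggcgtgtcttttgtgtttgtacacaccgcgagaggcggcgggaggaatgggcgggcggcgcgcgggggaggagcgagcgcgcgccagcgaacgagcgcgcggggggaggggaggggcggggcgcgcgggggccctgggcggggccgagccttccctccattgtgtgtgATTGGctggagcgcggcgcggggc
H3f3b (chr11:116024505-116024754, minus strand): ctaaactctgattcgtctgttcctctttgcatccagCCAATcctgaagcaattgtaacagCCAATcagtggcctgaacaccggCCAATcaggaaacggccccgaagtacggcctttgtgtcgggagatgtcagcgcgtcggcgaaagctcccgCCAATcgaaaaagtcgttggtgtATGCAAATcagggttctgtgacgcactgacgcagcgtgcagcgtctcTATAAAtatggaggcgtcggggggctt
H2afz (chr3:137864237-137864486, plus strand): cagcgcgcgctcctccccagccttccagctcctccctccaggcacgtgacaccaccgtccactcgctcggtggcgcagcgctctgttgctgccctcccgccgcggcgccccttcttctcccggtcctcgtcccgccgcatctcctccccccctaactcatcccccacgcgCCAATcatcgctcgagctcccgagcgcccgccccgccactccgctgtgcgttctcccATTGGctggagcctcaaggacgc
H2afv (chr11:6444444-6444693, minus strand): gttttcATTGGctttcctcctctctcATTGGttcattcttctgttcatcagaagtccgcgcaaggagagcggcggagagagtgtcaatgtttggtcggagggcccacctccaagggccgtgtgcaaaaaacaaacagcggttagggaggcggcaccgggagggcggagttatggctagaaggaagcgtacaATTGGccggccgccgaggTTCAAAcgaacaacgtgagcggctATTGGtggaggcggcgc

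In these windows H3f3b had 4 CCAAT boxes, 1 octamer and 1 TATA box, where H3f3a had 1 CCAAT box and none of the other letters. H2afv had 4 CCAAT boxes and 1 CHR element, and H2afz had 2 CCAAT boxes. Hist1h1c had 1 CCAAT box. A missing match says only that these letters are not in the window.

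Clustered genes gave few counts. Together, the 54 listed clustered genes took 0.0085% to 0.00894% of all counts in the control libraries and 0.0107% to 0.0111% in the IL-33 libraries, and the 16 genes outside took 0.154% to 0.158% over all 6 libraries. The 35 clustered genes left out by the filter had 0 to 25 counts in any library, with a median of 22 counts over the 6 libraries together, and 2 of them had no count in any control library. Of the H2A family 10 of 20 annotated clustered genes had no row and 1 of the 10 listed was tested, against 6 of 17 listed for H2B, 4 of 10 for H3, 5 of 12 for H4 and 3 of 5 for H1. Of 28 other RNAs without a poly(A) tail, such as small nuclear RNAs, 9 had a row, with summed levels of 4.53 to 10.3 CPM, and 3 were tested and not called. Both library kits named by the sources are commonly used on poly(A) RNA, and the selection is not stated. The levels of clustered genes are those of the transcripts that entered the libraries, and do not measure all histone mRNA in the cells.

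Levels can be compared between genes per kilobase of exon. H3f3b stood highest at 226 CPM per kilobase over the 6 libraries, followed by H2afz at 153, H1f0 at 72.8, H2afy at 49.3, Hist1h1c at 33.8 and H2afv at 30.6. The median was 40 CPM per kilobase in the 8 tested coding genes outside the clusters and 1.63 in the 19 tested clustered genes. Sequence shared between copies also limits what could be counted. Of all stretches of 50 bases in the transcripts, a median of 53.6% were found in no other gene for the listed clustered genes, with 2.7% in Hist1h2bq and 100% in Hist2h2be, and 23 of the 54 lay below 50%. For the 8 tested coding genes outside the median was 93.05%, and the lowest was H2afz with 64.6%. How the authors' counting treated reads that match several genes is not given, so values of genes with low shares are uncertain.

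**Figure D2:**
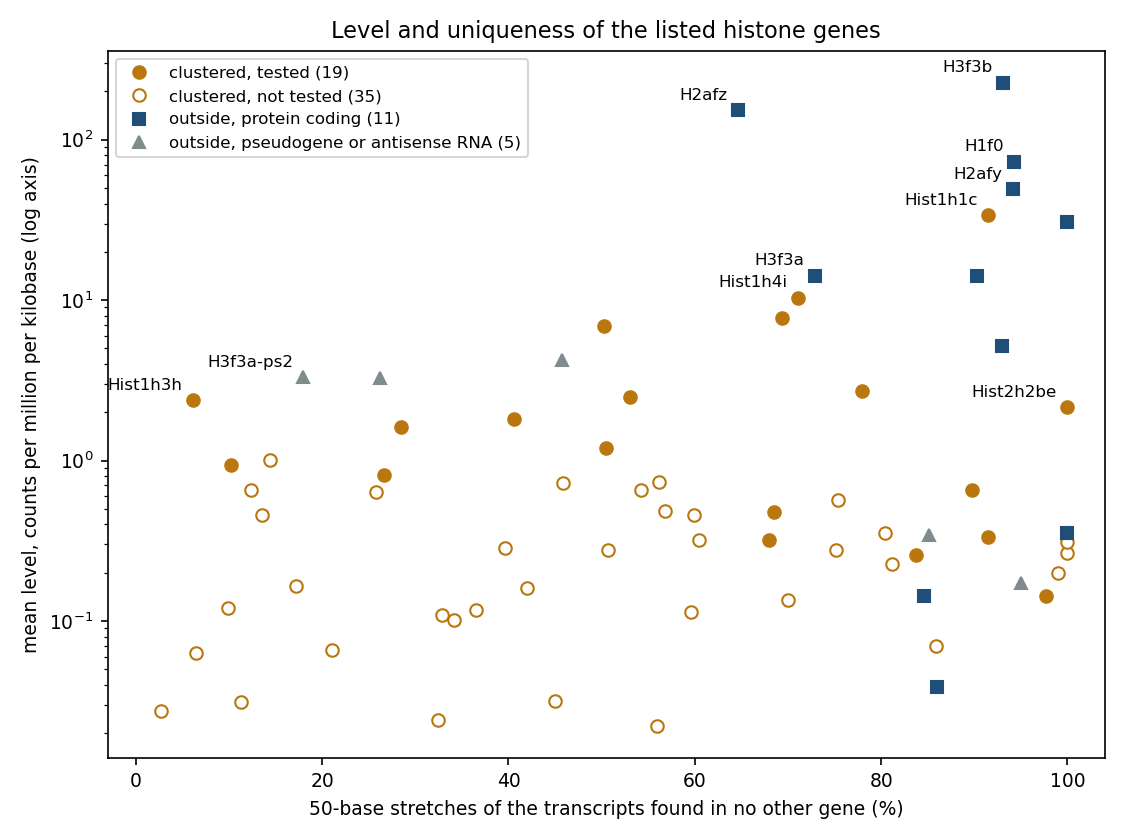
Mean level over the 6 libraries in CPM per kilobase (log y axis) against the share of 50-base stretches found in no other gene in % (x axis), 1 point for each of the 70 listed genes. Hist1h1c (33.8 CPM per kilobase, 91.5%) is the only clustered gene among the 6 highest levels.

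With IL-33, 4 of the 31 tested histone genes were higher and 4 were lower at an adjusted p under 0.05 by edgeR, where 13.6% and 13.9% of all tested genes were. Clustered genes gave 2 of the 4 rises (Hist1h1c and Hist1h1e) and none of the falls among 19 tested, with 0 falls at an unadjusted p under 0.05 by edgeR and 0 calls of a fall by DESeq2 or limma-voom. The genes outside the clusters gave 2 rises (H3f3b and H2afy) and 4 falls (H2afz, H2afv, H2afx and H3f3a) among 12 tested. The fold threshold was passed by Hist1h1e alone, against 2.47% of all tested genes higher and 4.87% in either direction, and DESeq2 and limma-voom did not call this gene. The median log2 fold change was 0.18 in the tested clustered genes (12 above 0 and 7 below) and -0.16 in those outside (4 above and 8 below), beside a median near 0 (-0.000628) over all tested genes. Single libraries decided several of these calls. Clustered rises numbered 1 without control library 1 or 3 or IL-33 library 2 or 3. Outside the clusters rises numbered 1 without control library 2 or IL-33 library 1 or 3, and falls 2 without control library 1 or IL-33 library 3. Libraries of the groups did not overlap in 5 histone genes higher and 3 lower with IL-33, and in 38.9% of all tested genes.

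**Figure D3:**
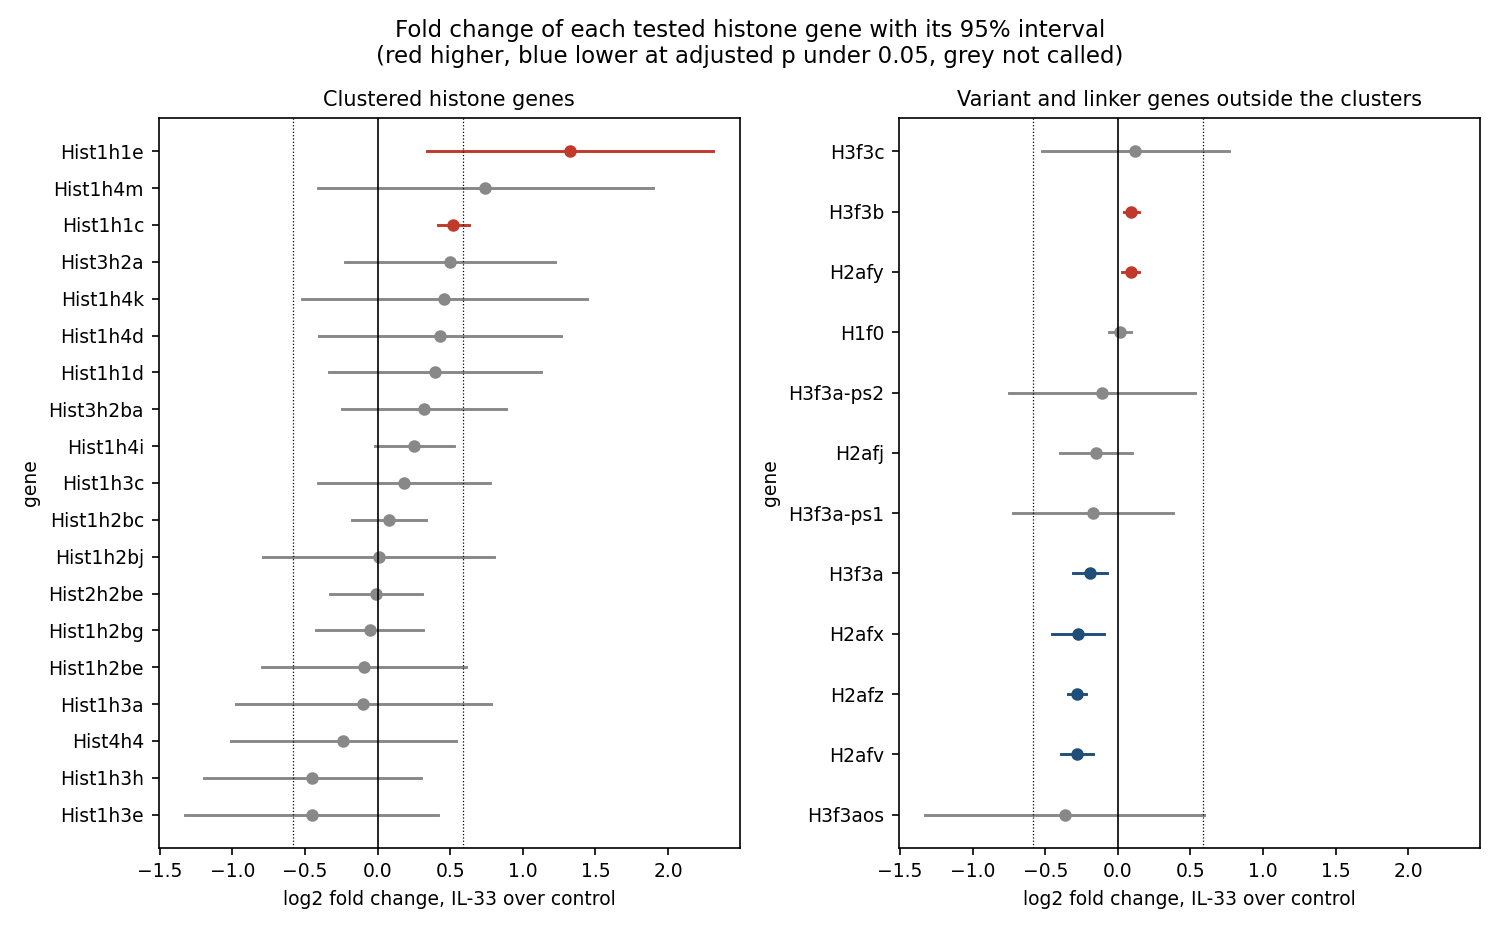
Log2 fold change of IL-33 over control with its 95% interval (x axes) for the 19 tested clustered genes (left) and the 12 tested genes outside (right). Dotted lines mark a change of 1.5-fold in either direction, and the intervals of most clustered genes are wide beside those of H3f3b, H2afy, H1f0 and H2afz.

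The share of all counts on the clustered genes was 0.00875% ± 0.000228 in control and 0.0109% ± 0.000186 in IL-33 libraries (SD, n = 3 per group), and every IL-33 library lay above every control library. Hist1h1c made up most of this distance. Without it, the other 53 clustered genes took 0.0044% ± 0.000165 in control and 0.00474% ± 9.93e-05 in IL-33 libraries (SD, n = 3 per group), and the groups again did not overlap. Between families, summed counts of the 17 listed clustered H2B genes were 537, 480 and 517 in control and 529, 483 and 562 in IL-33 libraries, which overlapped. The 12 H4 genes summed to 203, 248 and 241 in control and 280, 278 and 299 in IL-33 libraries, which did not. None of the 5 tested H4 genes was called, and libraries of the groups did not overlap in 38.9% of all tested genes. The 10 H3 genes summed to 141, 107 and 110 in control and 123, 124 and 99 in IL-33 libraries. The 10 H2A genes summed to 23, 43 and 30 and then 46, 40 and 51, and the 4 linker genes other than Hist1h1c to 46, 28 and 20 and then 42, 61 and 73, and both overlapped.

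The lowest adjusted p of the clustered genes was that of Hist1h1c, while the other clustered linker genes were low and Hist1h1d was not called. Hist1h1c, which encodes H1.2, lies on chromosome 13 from 23738808 to 23740367 on the plus strand (GRCm38). It had 905, 905 and 936 counts in the control libraries and 1338, 1284 and 1397 in the IL-33 libraries, so the groups stood well apart. The level rose from 43.3 ± 1.07 to 62.1 ± 0.821 CPM (SD, n = 3 per group), a log2 fold change of 0.52 with a standard error of 0.054 (adjusted p = 3.45e-14, edgeR). This call held in each of 13 other settings, with log2 fold changes from 0.50 to 0.54. The exons of Hist1h1c overlap no other gene, and 91.5% of its 50-base stretches were its own.

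H1f0 encodes the linker H1.0, the replacement member of the family outside the clusters, which is known to accumulate in resting and differentiated cells. Counts of H1f0 were 3073, 3024 and 3355 in control and 3215, 3120 and 3397 in IL-33 libraries. These ranges overlapped, with 149 ± 4.15 and 150 ± 2.18 CPM (SD, n = 3 per group), and the 95% interval of the log2 fold change ran from -0.06 to 0.09. Of the counts on Hist1h1c and H1f0 together, Hist1h1c took 22.8%, 23% and 21.8% in the control and 29.4%, 29.2% and 29.1% in the IL-33 libraries. Among the transcripts that entered the libraries, the mixture of the pair thus moved towards Hist1h1c in all 3 IL-33 libraries, with no test of its own. It does not measure all mRNA of the pair in the cells.

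Hist1h1e, the gene of H1.4, had 6, 10 and 6 counts in control and 5, 23 and 29 in IL-33 libraries. Its call (log2 fold change 1.33, standard error 0.49, adjusted p = 0.0351, edgeR) rests on IL-33 libraries 2 and 3, since library 1 lay below every control library. By edgeR the adjusted p was 0.108 without control library 1, 0.12 without control library 3, 0.158 without IL-33 library 2 and 0.271 without IL-33 library 3. It was also 0.154 with limma-voom, 0.0502 with no filter, and DESeq2 gave none. Hist1h1e shares exon sequence on the same strand with Hist1h2be and Gm11398, so its few counts cannot be assigned with certainty.

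The other linker genes were low. Hist1h1d (H1.3) had 32, 15 and 11 counts in control and 21, 25 and 32 in IL-33 libraries, which overlapped (log2 fold change 0.39, 95% interval -0.33 to 1.12). Hist1h1a (H1.1) and Hist1h1b (H1.5) did not pass the filter. Hist1h1a had 1, 2 and 1 counts in control and 9, 8 and 4 in IL-33 libraries, and Hist1h1b had 7, 1 and 2 and then 7, 5 and 8. The germ line linker gene H1foo had 4 to 18 counts and H1fx 0 to 3 counts in any library.

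Among the clustered core histone genes 16 were tested and none was called in either direction by edgeR, DESeq2 or limma-voom, and 0 had an unadjusted p under 0.05 by edgeR. Of all tested genes 27.5% were called in either direction by edgeR. Most of these 16 genes held too few counts for a change below the fold threshold to be detectable. The H4 gene Hist1h4i had 130, 145 and 160 counts in control and 170, 168 and 191 in IL-33 libraries. Its libraries did not overlap, yet the log2 fold change of 0.25 (standard error 0.14) gave an adjusted p of 0.167 by edgeR. Hist1h4d, Hist1h4k and Hist1h4m had positive log2 fold changes of 0.43, 0.46 and 0.74 at group means of 0.281 to 0.852 CPM with intervals that included 0, and Hist4h4 had -0.24. Of their 50-base stretches, 89.8% in Hist1h4d, 28.5% in Hist1h4k and 10.2% in Hist1h4m were found in no other gene.

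The clustered H2B genes had the largest summed counts of the core families, while Hist1h4i stood above each of them per kilobase (10.3 CPM per kilobase, against 7.74 for Hist1h2bc). Hist1h2bc had 198, 158 and 197 counts in control and 204, 178 and 213 in IL-33 libraries, and its log2 fold change of 0.08 had a 95% interval from -0.17 to 0.33. Hist2h2be, whose transcript has a poly(A) signal and no stem-loop match, had 115, 106 and 138 counts in control and 95, 135 and 132 in IL-33 libraries (-0.01, 95% interval -0.33 to 0.30). Hist1h2bg had 113, 95 and 65 counts in control and 99, 70 and 100 in IL-33 libraries (-0.05, 95% interval -0.42 to 0.31). For these 3 genes the groups overlapped, and each interval left out a change of 1.5-fold in either direction.

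The other clustered genes among the 10 of highest level had at most 46 counts in any library. Hist1h2be had 35, 27 and 13 counts in control and 30, 16 and 26 in IL-33 libraries, and Hist3h2ba had 27, 34 and 33 and then 42, 32 and 46. Hist1h3c, the H3 gene of highest level, had 26, 27 and 40 counts in control and 41, 40 and 26 in IL-33 libraries. Hist3h2a, the only clustered H2A gene tested, had 11, 22 and 21 counts in control and 24, 26 and 28 in IL-33 libraries, which did not overlap (log2 fold change 0.50, adjusted p = 0.336 by edgeR). It shares exon sequence with Trim17 on the same strand. Hist1h3h and Hist1h3e had the lowest log2 fold changes of the clustered genes, both -0.45 with intervals that included 0, and 6.1% and 26.6% of their 50-base stretches were their own.

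**Figure D4:**
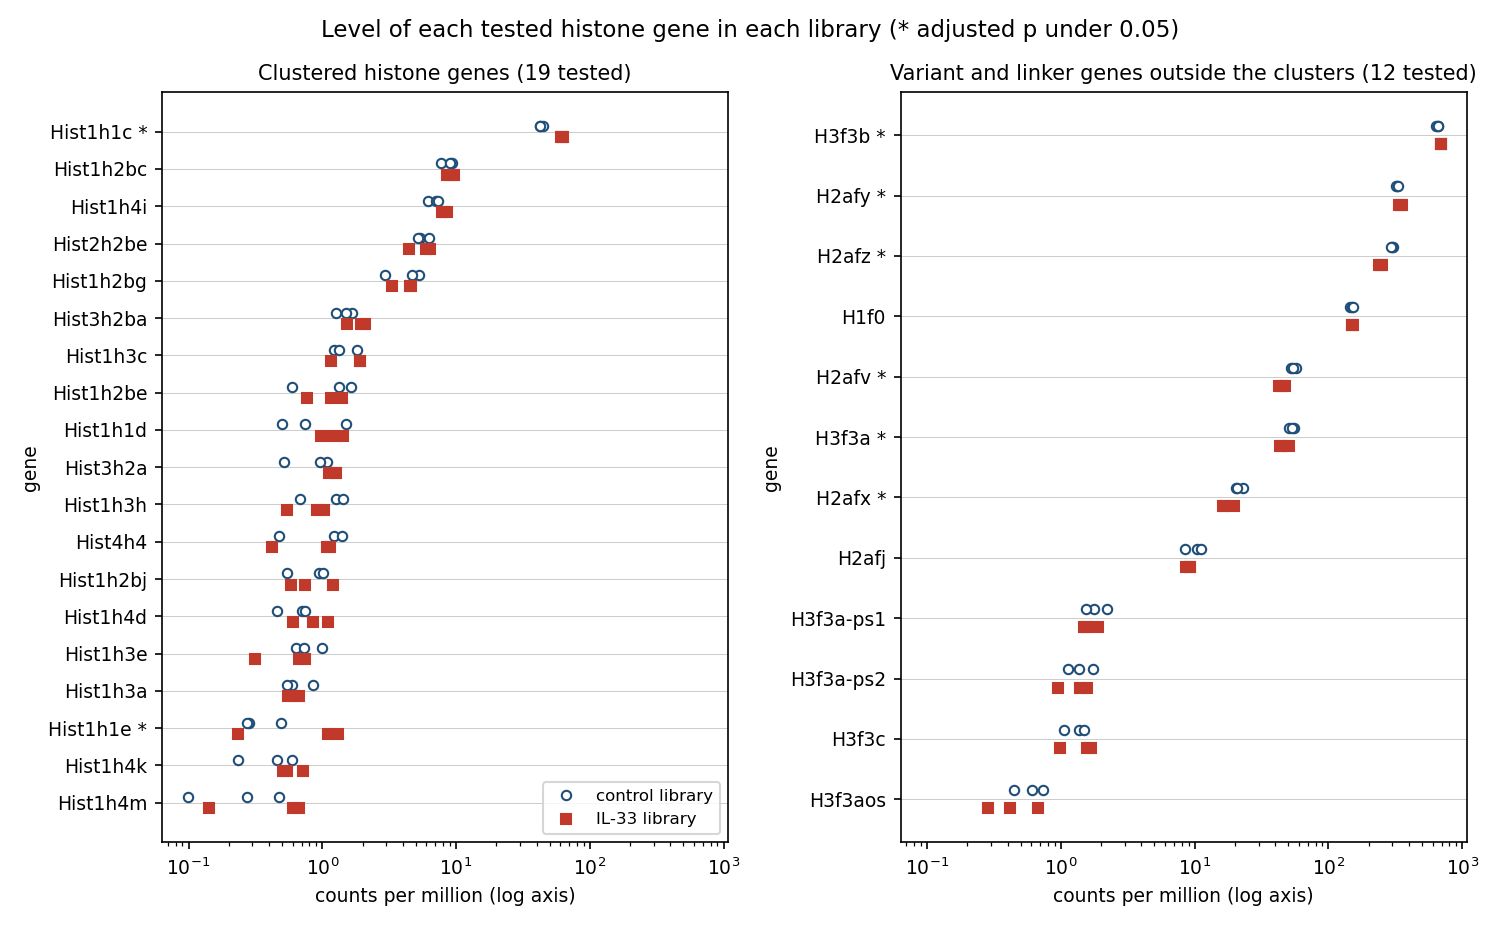
Level of each tested gene in each library in CPM (log x axes), with open circles for control and filled squares for IL-33 libraries. The libraries of Hist1h1c, H2afz, H2afv and H2afx stand apart by group, while most clustered genes below 2 CPM overlap.

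Of the 5 H2A variant genes tested outside the clusters, 3 were called lower with IL-33, 1 higher and 1 was not called. Among all tested genes 13.9% were lower and 13.6% higher. H2afz encodes H2A.Z.1, a variant placed at promoters by the SRCAP and p400 complexes. It had 6476, 6034 and 6437 counts in control and 5406, 5149 and 5341 in IL-33 libraries, all of them below the controls. The level fell from 299 ± 5.88 to 246 ± 5.51 CPM (SD, n = 3 per group), with a log2 fold change of -0.28 and a standard error of 0.032 (adjusted p = 1.31e-12, edgeR). H2afv, the gene of H2A.Z.2, had 1122, 1171 and 1184 counts in control and 922, 999 and 997 in IL-33 libraries. Its level went from 54.8 ± 2.48 to 45.1 ± 2.4 CPM (SD, n = 3 per group), with the same log2 fold change of -0.28 and a standard error of 0.056 (adjusted p = 3.09e-05, edgeR). H2afv took 14.8%, 16.3% and 15.5% of the counts on the pair in control and 14.6%, 16.2% and 15.7% in IL-33 libraries, so the proportion of the genes for H2A.Z overlapped between groups while both fell.

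H2afx encodes H2A.X, which is phosphorylated beside DNA breaks, and makes both a stem-loop mRNA and a polyadenylated one. It had 488, 413 and 452 counts in control and 426, 349 and 363 in IL-33 libraries, and in CPM the IL-33 libraries lay below the controls. The level went from 21.3 ± 1.46 to 17.6 ± 1.92 CPM (SD, n = 3 per group), with a log2 fold change of -0.28 and a standard error of 0.09 (adjusted p = 0.0131, edgeR). This call was lost without control library 1 (adjusted p = 0.107), IL-33 library 2 (0.0723) or IL-33 library 3 (0.0859) by edgeR and with DESeq2 (0.0562), though the log2 fold change stayed at -0.22 or lower. H2afj had 219, 227 and 186 counts in control and 184, 194 and 204 in IL-33 libraries, which overlapped (log2 fold change -0.15, adjusted p = 0.415 by edgeR).

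H2afy encodes macroH2A1, a large variant with a macrodomain that is known from silent chromatin such as the inactive X chromosome. Counts were 6960, 6465 and 7243 in control and 7478, 7022 and 7896 in IL-33 libraries. The rise from 326 ± 6.52 to 346 ± 10.3 CPM (SD, n = 3 per group) was small, with a log2 fold change of 0.09 and a standard error of 0.03 (adjusted p = 0.0209, edgeR). It was not called without control library 2 (adjusted p = 0.13), IL-33 library 1 (0.0655) or IL-33 library 3 (0.116), nor with library totals as the only scaling (0.073), by edgeR. The second macroH2A gene, H2afy2, had 1 to 14 counts in any library and was not tested.

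The genes of H3.3 moved in opposite directions. H3f3b had 13562, 13406 and 14377 counts in control and 14944, 14630 and 15346 in IL-33 libraries. In CPM its libraries did not overlap, at 652 ± 11.1 in control and 694 ± 3.59 with IL-33 (SD, n = 3 per group), a log2 fold change of 0.09 with a standard error of 0.026 (adjusted p = 0.00344, edgeR). H3f3a had 1182, 1024 and 1164 counts in control and 1087, 946 and 972 in IL-33 libraries. Its level was 53.1 ± 2.65 CPM in control and 46.5 ± 3.6 CPM with IL-33 (SD, n = 3 per group), which overlapped, with a log2 fold change of -0.19 and a standard error of 0.057 (adjusted p = 0.00646, edgeR).

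H3f3a made up 8.02%, 7.1% and 7.49% of the counts on both genes in control and 6.78%, 6.07% and 5.96% in IL-33 libraries, which did not overlap. The call of H3f3a was lost without control library 1 (adjusted p = 0.054) or IL-33 library 3 (0.0759) by edgeR. Since both genes encode the same protein, the sum bears on the supply of H3.3 mRNA, and it took 0.0708% ± 0.000725 of all counts in control and 0.0736% ± 0.000446 in IL-33 libraries (SD, n = 3 per group). H3f3a overlaps the antisense gene H3f3aos and Gm17275 on the other strand, and whether counting used the strand is not stated. The same limit holds for 6 of the 12 tested genes outside the clusters, among them H2afx, H2afy, H1f0 and H2afj. H3f3aos itself had 6 to 16 counts in any library.

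The processed copies H3f3a-ps1, H3f3a-ps2 and H3f3c held 20 to 47 counts in any library and were not called. H3f3a-ps1 had 47, 36 and 34 counts in control and 32, 32 and 42 in IL-33 libraries, and H3f3a-ps2 had 29, 23 and 38 and then 30, 20 and 35. Of their 50-base stretches, 18% to 45.7% were found in no other gene, so reads of H3f3a and of these copies cannot be fully told apart.

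Genes that make, cut or place histones were taken from lists. Of 28 tested genes for histone gene transcription and 3′ end formation, 1 was higher and 8 were lower, with a median log2 fold change of -0.09. Slbp, which binds the stem-loop and marks S phase, had 2212, 2263 and 2231 counts in control and 1860, 1719 and 1883 in IL-33 libraries. It fell from 106 ± 4.97 to 84.4 ± 2.27 CPM (SD, n = 3 per group), a log2 fold change of -0.33 with a standard error of 0.042 (adjusted p = 2.38e-10, edgeR). Srrt and Zfp473, which take part in histone mRNA 3′ end formation, had log2 fold changes of -0.35 and -0.53, and the cyclin E and Cdk2 genes that switch on histone transcription had -0.29 (Ccne1), -0.62 (Ccne2) and -0.36 (Cdk2), all called. The list also held 19 genes that were not called, among them Lsm10 (-0.20), Lsm11 (-0.20), Cpsf2 (-0.09) and Cpsf3 (-0.10). The single rise was Cdk9 (0.10, adjusted p = 0.0483, edgeR), and no gene of the list was higher without control library 2 or 3 or IL-33 library 1 or 3.

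Npat, the coactivator of histone gene clusters, had 1237, 1169 and 1228 counts in control and 1202, 1067 and 1120 in IL-33 libraries. Its log2 fold change of -0.13 gave an adjusted p of 0.063 by edgeR, and that of its partner Hinfp was -0.08 (adjusted p = 0.295, edgeR). Casp8ap2, which works beside Npat, was called at -0.16 (adjusted p = 0.00626, edgeR).

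Histone chaperones and assembly factors gave 4 higher and 21 lower genes of 39 tested, with a median log2 fold change of -0.15. The list holds Acd, a telomere gene, by mistake, which was not called. Asf1b, a chaperone of new H3 and H4 in dividing cells, had 1264, 1066 and 1211 counts in control and 801, 670 and 732 in IL-33 libraries, with a log2 fold change of -0.71 and a standard error of 0.061 (adjusted p = 5.3e-18, edgeR). Mcm2, a subunit of the replicative helicase that also holds H3 and H4, had -0.63 and was the other gene of the list past the fold threshold. The subunits of chromatin assembly factor 1, which loads histones behind the replication fork, had log2 fold changes of -0.43 (Chaf1a) and -0.40 (Chaf1b), and the H1 and H3 carrier Nasp had -0.28, all called. The rises were Npm1 (0.34), Ubn2 (0.14), Ncl (0.09) and Atrx (0.07), of which Npm1 and Ncl are nucleolar chaperones. Genes of the HIRA and ATRX-DAXX complexes, which place H3.3, moved in both directions, since Ubn2 and Atrx were called higher, Ubn1 (-0.15) was called lower, and Hira (-0.11), Cabin1 (-0.06) and Daxx (-0.01) were not called. Hjurp, which places the centromeric H3 variant, and the gene of that variant, Cenpa, had log2 fold changes of -0.25 and -0.26, both called. Cenpa had 2818, 2631 and 2795 counts in control and 2311, 2329 and 2357 in IL-33 libraries.

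Of the S phase genes 40 of 43 tested were lower and none higher by edgeR (0 also at an unadjusted p under 0.05, and 0 by DESeq2 or limma-voom), with a median log2 fold change of -0.41, and Pcna, the sliding clamp of replication, fell from 308 ± 12.8 to 231 ± 1.11 CPM (SD, n = 3 per group). Each of the former lists has 3 tested genes in common with the S phase list. Without these, 5 of 25 genes of the first and 18 of 36 of the second were lower. Among all tested genes 13.9% were lower. Of the histone genes, H2afz, H2afv, H2afx and H3f3a were lower. None of the 19 tested clustered genes was lower, and their median log2 fold change was 0.18. Their median level was 1.03 CPM, against 47.9 CPM for the S phase genes. Most clustered genes thus held too few counts for a fall as large as the S phase median to be detected. The part of cell cycle phase in the histone results was not tested.

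**Figure D5:**
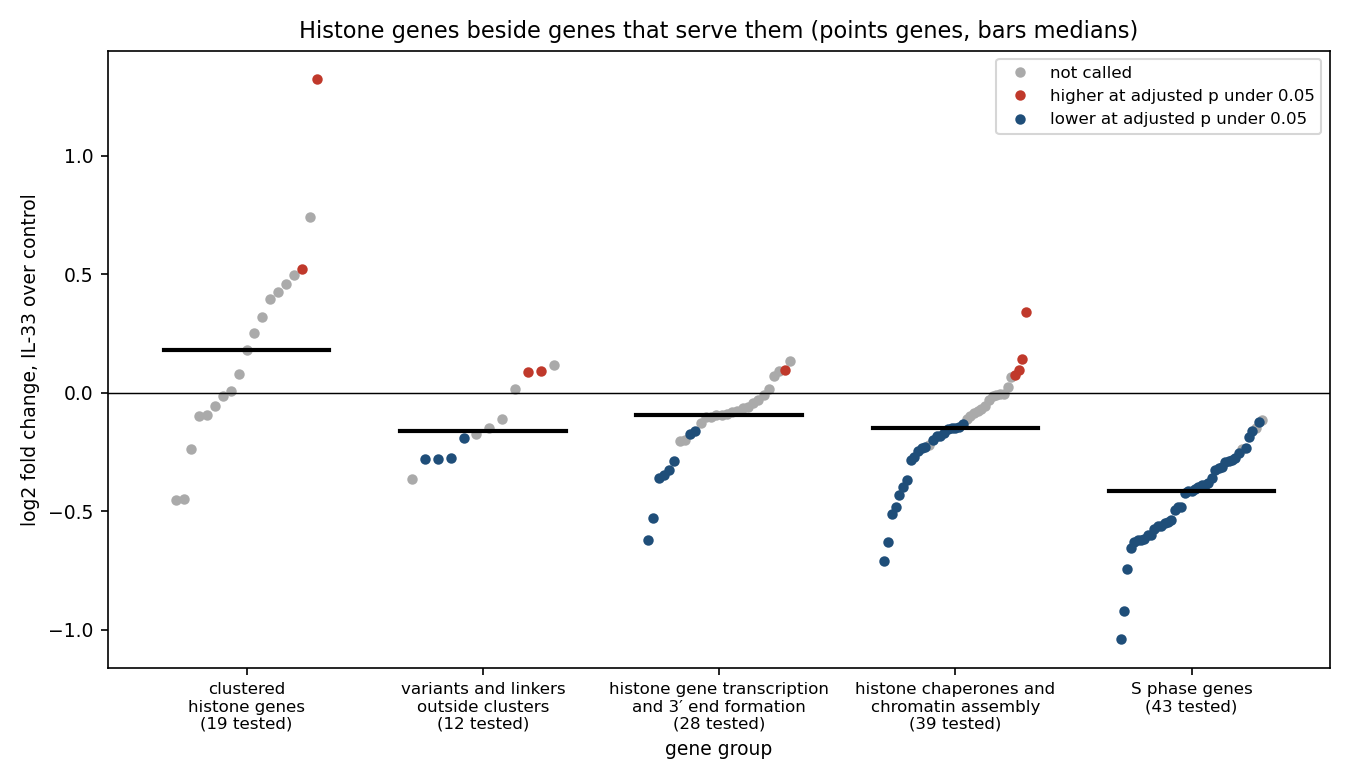
Log2 fold change of IL-33 over control (y axis) of each tested gene in 5 groups of genes (x axis), with points for genes, bars for medians and colours for calls. The medians run from 0.18 in the clustered histone genes to -0.41 in the S phase genes.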

How the data were processed

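The authors deposited, for 6 libraries, unnormalized counts of reads on each gene, and 1 column of signal under the name DESeq2 gives to the mean of scaled counts, which was not used for any result. The submitters' processing notes name Bowtie 0.12.2 and mm8 with no role, the paper names neither, and the counting program, its use of strand and its treatment of reads that match several genes are not stated. The labels name the TruSeq kit and the methods NEBNext Ultra. Samples were grouped by title. Of 26128 Ensembl identifiers, 26072 matched a symbol of GENCODE M21 (GRCm38), which also gave positions, exon lengths and transcripts.

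Counts were filtered with filterByExpr of edgeR 4.0.16 (minimum count 10, minimum total 15), which removed 0.11% of counts, scaled by TMM and compared by the two-sided quasi-likelihood test (robust glmQLFit) with Benjamini-Hochberg adjustment in R 4.3.3. The study's thresholds, an adjusted p of 0.05 and a fold change of 1.5, were used. The biological coefficient of variation was 4.68%. Library pairs of a group differed by more than sampling noise (chi-square per gene 2.64 to 3.67). CPM are counts in 1000000 of the scaled library. On simulated data 96.5% of 200 genes changed 2-fold were recovered, with 8 unchanged genes called of 14473 tested. The changed genes were drawn only from genes above a minimum mean count, which most tested clustered histone genes did not reach. This rate does not apply to genes of few counts or to smaller changes. Alternatives were DESeq2 1.42.0, limma-voom (limma 3.58.1), other scalings and filters, a replicate block and each library left out.

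The histone genes and all lists were chosen with earlier results of these data known. Genes are named by rule: histone genes past both thresholds, the 10 of highest mean level in and outside the clusters, tested linker genes, the 3 largest called rises and falls, 10 fixed genes (Slbp, Npat, Cenpa, Hinfp, Casp8ap2, Asf1b, Chaf1a, Chaf1b, Nasp and Pcna) and, of the lists of histone processing and of chaperones only, genes past both thresholds. Other genes named were chosen after their values were seen.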

Additional observations from a re-analysis of the deposited data

Results flagged for a closer look

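Of the 35 clustered genes left out by the filter, 2 had every IL-33 library above every control library. Among all tested genes 19.4% did, and the share among all genes left out was not worked out, so the 2 are listed without weight. Hist1h1a summed to 4 counts over the control libraries and 21 over the IL-33 libraries, and with no filter edgeR gave a log2 fold change of 2.27 with an adjusted p of 0.127. Hist1h3g summed to 19 and 30 counts, with a log2 fold change of 0.62 and an adjusted p of 0.62 in the same fit. Neither passed the threshold, and 45.9% of the 50-base stretches of Hist1h3g were found in no other gene.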

How the results depend on the processing

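The calls of Hist1h1c, H2afz, H2afv and H3f3b stayed past the threshold in the same direction in all 13 alternatives. Clustered genes called higher numbered 1 instead of 2 with DESeq2, limma-voom, no filter, the stricter filter (1 CPM or more in each library of either group) and the replicate block, and 1 to 2 with a library left out, the difference being Hist1h1e, which was weaker in 8 of 12 alternatives. Outside the clusters, the genes called higher numbered 1 with library totals alone and 1 to 2 with a library left out, and those called lower 2 to 4 with a library left out. The list of histone gene transcription and 3′ end formation had 0 genes higher with DESeq2, library totals alone, no filter and the replicate block, 2 with the stricter filter, and 0 to 1 with a library left out. The clustered genes that passed the filter took 0.00812% of counts in control and 0.0102% in IL-33 libraries, fewer genes being summed. Signs turned in genes that were not called. H1f0 had a log2 fold change of -0.0030 with library totals alone and from -0.0055 to 0.035 with a library left out. With a library left out the values ran from -0.12 to 0.13 for Hist2h2be, from -0.27 to 0.13 for Hist1h2bg, from -0.42 to 0.22 for Hist1h2be and from -0.26 to 0.072 for H3f3a-ps2. The cause was not tested for these shifts.

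Libraries with the same replicate number had deviations from the group means that correlated at 0.0925, 0.0445 and 0.0954 over 5720 genes. Every library correlated best with its own number, and correlations between different numbers ran from -0.137 to 0.0412. These weak values cannot decide whether the numbers pair the libraries, and the main fit did not pair them. With the replicate number as a block, 1884 genes were higher and 1914 lower at the adjusted p, against 1999 and 2037, and Hist1h1e had an adjusted p of 0.0671 by edgeR. Counts over all genes stayed within 1.5 times in every alternative, with 246 higher and 255 lower past both thresholds in DESeq2 as the lowest. Levels per kilobase give no call. Most clustered genes held too few counts for a change below the fold threshold to be detectable.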
